A study of Mus musculus with 24 samples.

Results

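The AMP-activated protein kinase (AMPK) genes and the kinases upstream of them were followed in the distal small intestine, or ileum, of the mouse. They comprised 10 genes chosen by symbol, with no threshold on their values: the catalytic subunits Prkaa1 and Prkaa2 (alpha 1 and alpha 2), the scaffold subunits Prkab1 and Prkab2 (beta 1 and beta 2), the nucleotide-binding subunits Prkag1, Prkag2 and Prkag3 (gamma 1 to gamma 3), and the upstream kinases Stk11 (LKB1), Camkk2 and Map3k7 (TAK1). All 10 were among the 55536 genes of the count table, and 9 of them were among the 13505 genes with enough reads to be tested. RNA was sequenced as 1 library per animal from 24 wild-type C57BL/6N mice, an inbred laboratory strain, that entered the experiment at 4 to 5 weeks of age. The control diet groups without (CD) and with metformin (CDmetf) ate a diet with 10% of its energy from fat, and the high-fat groups (HFD and HFDmetf) one with 60%. After 20 weeks on the diet, the CDmetf and HFDmetf animals drank metformin at 50 mg/kg/day for 10 weeks. Each group held 3 males (M1 to M3) and 3 females (F1 to F3), each taken from a different cage. A piece of the whole gut wall was sequenced, so that fewer cells of a type and less RNA per cell cannot be told apart.

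AMPK is a sensor of cellular energy. A catalytic alpha, a scaffold beta and a regulatory gamma subunit form 1 complex, AMP or ADP bound to gamma exposes the kinase to its activators, and LKB1 is the main kinase that phosphorylates the activation loop of alpha, while CAMKK2 does so when calcium rises and TAK1 has been described as a further one. The drug metformin, taken up strongly by the gut wall, inhibits respiration in mitochondria and by this route can activate AMPK. That activation is a matter of phosphorylation and of nucleotide binding, which RNA levels do not measure. The question here was which subunits the tissue transcribed and whether their RNA differed with diet or metformin.

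Prkaa1 lies on chromosome 15 (GRCm38, 15:5143861-5181899, plus strand) and Prkaa2 on chromosome 4 (4:105029874-105109890, minus strand). The site that the upstream kinases act on is shown from the coding sequence of both, 5′ to 3′, because it is what the 2 catalytic proteins share and where the 3 upstream kinases of the list meet them. The codon of the activation-loop threonine is in capitals; it is codon 183 of the 559 of Prkaa1 and codon 172 of the 552 of Prkaa2 in the GENCODE M21 transcripts.
Prkaa1: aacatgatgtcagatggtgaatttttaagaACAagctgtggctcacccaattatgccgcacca
Prkaa2: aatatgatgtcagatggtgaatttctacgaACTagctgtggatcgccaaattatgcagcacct
The 63 bases differed at 9 positions and all 21 codons encoded the same residues. A read from such a stretch can still be assigned to its gene by these differences, and reads that map to several places were left out of the counts.

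The 250 bases before the transcription starts of both catalytic genes (RefSeq, GRCm38.p6) are given in the direction of transcription. The GC box GGGCGG on either strand is in capitals. The level of both genes varied together over the libraries, and a part of these sequences in that was not tested. The window of Prkaa1 is 15:5143611-5143860 and that of Prkaa2 is 4:105109899-105110148.
Prkaa1: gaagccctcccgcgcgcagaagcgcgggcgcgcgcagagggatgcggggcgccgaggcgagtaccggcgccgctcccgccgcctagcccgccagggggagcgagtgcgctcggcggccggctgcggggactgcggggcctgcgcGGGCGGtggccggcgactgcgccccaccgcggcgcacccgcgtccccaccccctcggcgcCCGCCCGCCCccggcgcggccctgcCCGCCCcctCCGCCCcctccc
Prkaa2: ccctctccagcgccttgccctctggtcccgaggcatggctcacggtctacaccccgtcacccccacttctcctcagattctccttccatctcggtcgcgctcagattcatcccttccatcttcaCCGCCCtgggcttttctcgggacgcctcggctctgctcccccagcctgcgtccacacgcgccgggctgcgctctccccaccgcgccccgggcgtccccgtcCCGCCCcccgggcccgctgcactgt
GC content was 85.2% before Prkaa1, more than in 99.9% of the 32817 windows of the same length in the table, and 70.0% before Prkaa2, more than in 90.8% of them. The Prkaa1 window held 5 matches to GGGCGG, some of them overlapping, and 45 CpG dinucleotides, and the Prkaa2 window 2 matches and 24 CpG dinucleotides. Of all windows, 32.7% held the GC box, 33.8% CCAAT and 12.4% TATAAA on either strand, and neither Prkaa1 nor Prkaa2 held a match to the latter pair of motifs. Such a match is a description of the letters only.

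The libraries held 1829690 to 40606442 reads counted to genes. The 10 deep ones, 4 of them in the CD group, held 9261065 or more, and the 14 shallower ones 5186123 or fewer. CD M3 stood apart, since its 10 most abundant genes held 85.4% of its reads, while that share was 9.22% to 36.6% elsewhere. Its TMM factor was 0.192 and its floor of 3 counts was 0.699 CPM, within the range of the shallower libraries, although its total placed it among the deep ones. For HFD M2 and HFD F2, reads of Xist (3355 and 1) and of Y-linked genes (0 and 423) contradicted the sex on the label. Values are given in CPM, the usual scaling of read counts to a common library size, here with TMM normalisation of the library sizes. A count of 3, taken as the floor, corresponded to 0.0722 to 1.65 CPM, and it covers counting error only.

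Measured per length, the tissue held RNA of both catalytic subunits, of chiefly 1 scaffold subunit and of all 3 gamma subunits, Prkag3 being a minor one. Read counts were divided by the exonic bases from which a read could be counted. The table behaved as if made without strand: 460 of 460 genes whose every exonic base lies under exons of the other strand had 0 reads, as happens when reads over shared exons are set aside as ambiguous. For Prkag1 (15:98812797-98831521, minus strand) this removed 950 of 2175 exonic bases, covered by the antisense gene B130046B21Rik, and for Prkag2 (5:24862744-25100642, minus strand) 937 of 6480 bases. Countable lengths ran from 1225 bases for Prkag1 to 10921 for Camkk2.

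Prkab1 (beta 1, 5:116013586-116024508) had the highest level per kilobase of the 10 genes, with a median of 21.4 CPM per kb (13.9 to 30.9 over the 24 libraries). Prkaa1 followed with a median of 14.1 CPM per kb (10.3 to 20.3). Prkaa2 had 11.8 CPM per kb (6.73 to 27.2) and Stk11, on chromosome 10 (10:80115803-80130682), 11.1 CPM per kb (8.82 to 16.1). These neighbours overlapped: Prkab1 was above Prkaa1 in 21 of 24 libraries, Prkaa1 above Prkaa2 in 18, and Prkaa2 above Stk11 in 14.

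Prkag2 had a median of 9.11 CPM per kb (5.97 to 14.4), Prkag1 7.86 (4.58 to 14.3) and Map3k7, on chromosome 4 (4:31964097-32023467), 7.75 (6.51 to 10.7). Their order was not stable between libraries, with Prkag2 above Prkag1 in 15 of 24 and Prkag1 above Map3k7 in 14 of 24. The remaining 3 genes were lower in all 24 libraries. Prkab2 (beta 2, 3:97658193-97673812) had 2.04 CPM per kb (1.31 to 2.86), Camkk2 (5:122731170-122779409) 1.01 (0.498 to 1.56), and Prkag3 (1:74738922-74749221) 0.256 (0 to 0.752). With other definitions of gene length Prkab1 stayed first and Prkag3 last, while Camkk2 came above Prkab2 in 14 of 24 libraries with the basic transcript set and in 17 with the longest transcript, and the 6 genes from Prkaa1 to Map3k7 changed places.

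**Figure D1:**
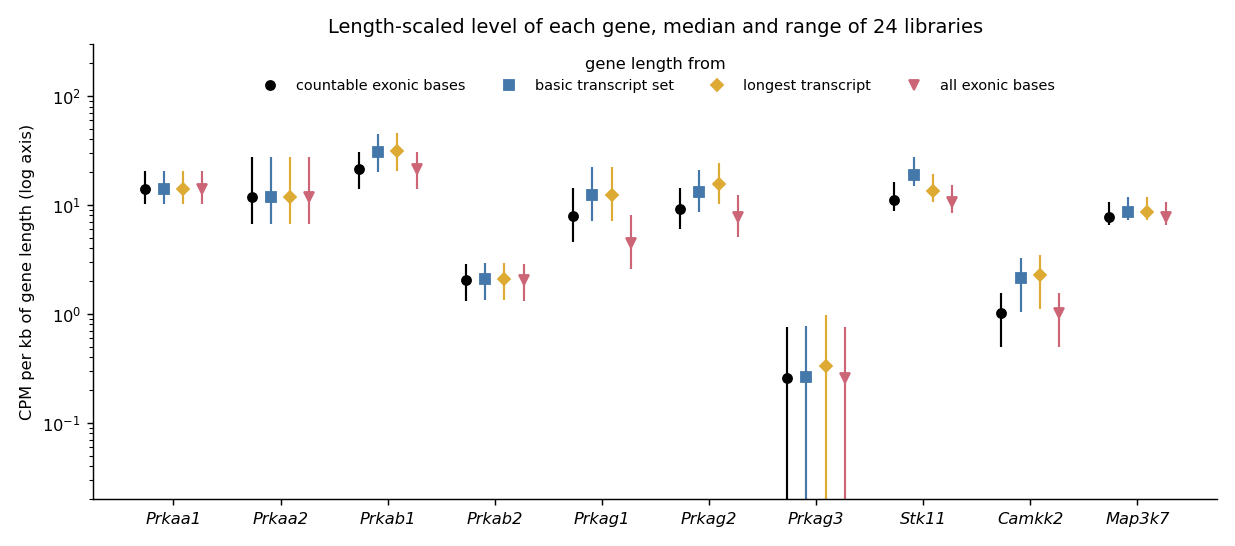
Level of each of the 10 genes in CPM per kb of gene length on a log axis, as the median (symbol) and range (line) of 24 libraries, with gene length taken in 4 ways; lines of Prkag3 reach 0 and are cut at the axis. Prkab1 lies above Prkab2, and Stk11 and Map3k7 above Camkk2, under all 4 lengths, while Prkag1 lies clearly below Prkag2 only when bases shared with antisense genes are counted in its length (lower in 24 of 24 libraries, against 14 to 17 with the other lengths).

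Within the alpha family, Prkaa1 made up 54.0% ± 5.82 (SD, n = 24) and Prkaa2 46.0% of the RNA per length. Prkaa2 is best known from skeletal and heart muscle, and the skeletal muscle markers were low here: 1 of the 8 genes of that list was at 0 in all libraries and the summed level of the list was 3.33 to 12.2 CPM outside the CDmetf group and 4.12 to 59.6 CPM in it. Prkag3, the gamma subunit of fast skeletal muscle, had 0 to 46 reads per library, 244 in all. Its highest level, 2.77 CPM, was in CD M1, from 26 reads. The part of skeletal muscle in the levels of Prkaa2 and Prkag3 was not tested.

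Within the beta family, Prkab1 made up 91.0% ± 2.81 (SD, n = 24) of the RNA per length and Prkab2 8.98%. Prkab1 was above Prkab2 in 24 of 24 libraries, by a median ratio of 10.3 (5.78 to 21.5). Over the exons of the basic transcript set or of the longest transcript the median ratio was 14.6 and 14.9. Of the gamma family, Prkag1 made up 45.7% ± 6.72, Prkag2 52.7% ± 6.46 and Prkag3 1.56% ± 0.938 (SD, n = 24). With all exonic bases as the length Prkag1 fell to 35.7%, since bases that cannot be counted are then part of its length.

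Among the upstream kinases, Stk11 exceeded Camkk2 per length in 24 of 24 libraries, by a median ratio of 10.7 (8.05 to 24.9), and Map3k7 exceeded Camkk2 by 7.50 (4.62 to 15.7). With the longest transcripts these ratios were 5.66 and 3.71, still above 1 in all libraries. Stk11 was above Map3k7 in 20 of 24. The lowest counts behind these levels were 71 reads for Stk11, 76 for Map3k7 and 12 for Camkk2.

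None of the 9 tested genes differed between groups at a false discovery rate (FDR) under 0.05 by edgeR's quasi-likelihood test, in any of the 4 contrasts, in the diet by metformin interaction, in the average effect of either factor or between the sexes. The background was as low: 0% of the 13505 genes passed in 7 of these 8 comparisons and 0.0074% (1 gene) in the comparison of males and females. At an unadjusted p under 0.05, 642 to 1020 genes passed per comparison, and limma-voom and DESeq2 called 0 to 4 and 0 to 54 genes at an FDR under 0.05 but none of the 9. The members' log2 fold changes (logFC) in the 4 contrasts ranged from -0.35 to 0.38, and their 95% intervals from -0.76 to 0.72. None of these intervals reached a difference of 1 on the log2 scale.

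**Figure D2:**
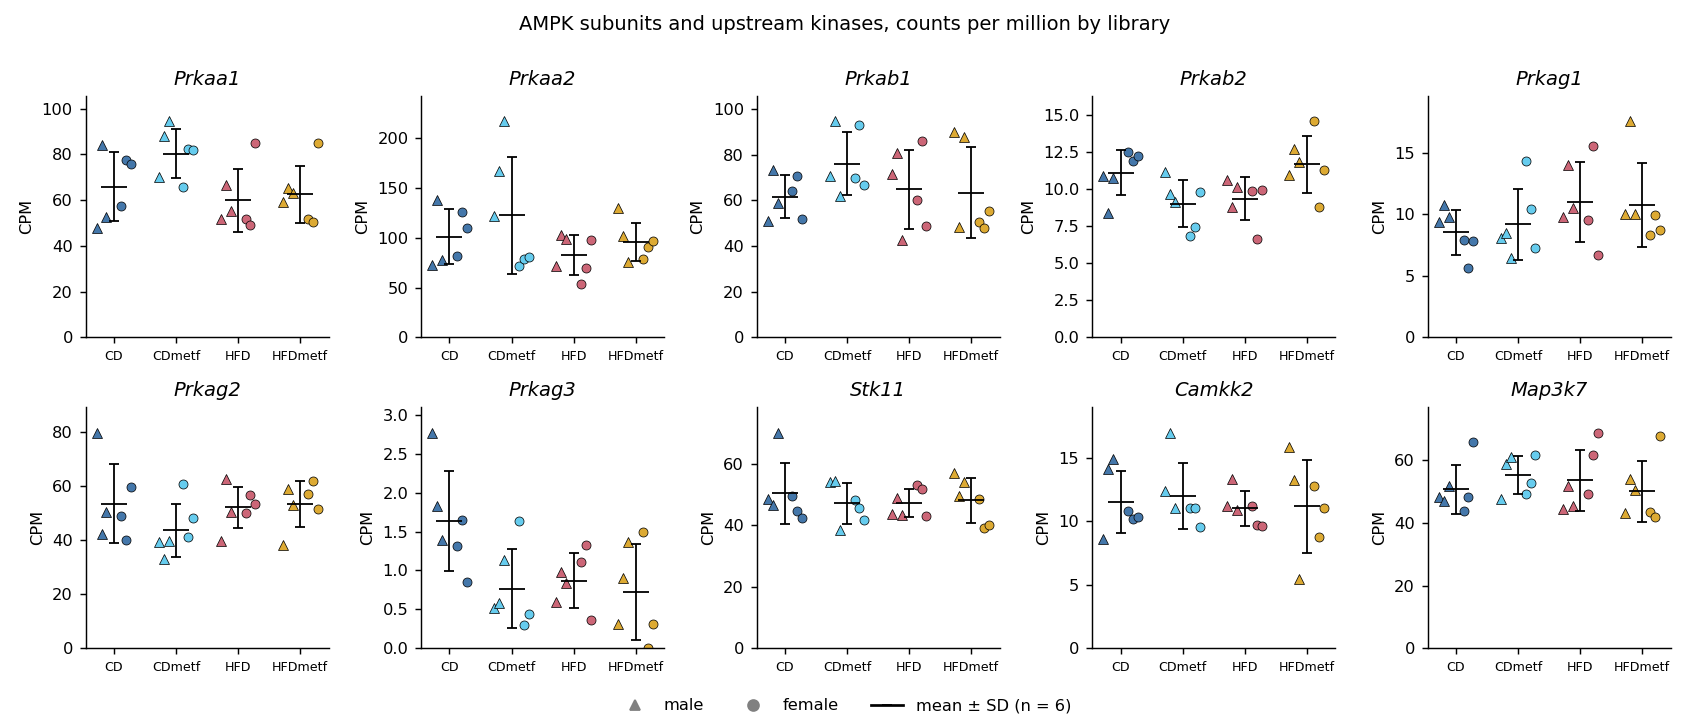
CPM of the 10 genes in each library by group, with males as triangles, females as circles, replicate numbers from left to right, and the mean ± SD of 6 libraries as a bar. The 6 libraries of a group overlap with those of the other groups for each gene, and in CDmetf the 3 males lie above the 3 females for Prkaa2.

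In HFD vs. CD the member with the smallest p was Prkab2 (logFC = -0.25, SE = 0.15, 95% interval -0.55 to 0.06, FDR = 0.995, edgeR). By label, it was higher in HFD in 1 of 6 pairs of the same sex and number. That pair was HFD M2 (8.81 CPM), whose reads contradicted the sex on its label, and CD M2 (8.36 CPM). The logFC of all 9 ranged from -0.32 to 0.29, and 0 of 9 members had an unadjusted p under 0.05, against 4.75% of all genes. In HFDmetf vs. CDmetf, 2 of 9 members did, against 7.55% of all genes. They were Prkab2 (logFC = 0.38, SE = 0.15, 95% interval 0.07 to 0.68) and Prkaa1 (logFC = -0.35, SE = 0.14, 95% interval -0.64 to -0.07), each with an FDR of 0.626. Prkab2 was higher in HFDmetf in 5 of 6 pairs and Prkaa1 in 1 of 6.

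For metformin on the high-fat diet, HFDmetf vs. HFD, 1 of 9 members had an unadjusted p under 0.05, against 6.87% of all genes. It was Prkab2 (logFC = 0.33, SE = 0.15, 95% interval 0.02 to 0.63, FDR = 0.620), higher in HFDmetf in 6 of 6 pairs by label. Among the 4 pairs without HFD M2 or HFD F2 it was higher in 4, and HFDmetf F2, with 8.80 CPM, lay just below HFD M2, with 8.81 CPM. The members' lowest logFC was -0.09. For metformin on the control diet, CDmetf vs. CD, 1 of 9 members did, against 5% of all genes: Prkaa1 (logFC = 0.29, SE = 0.14, 95% interval 0.01 to 0.58, FDR = 0.963), higher in CDmetf in 6 of 6 pairs.

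**Figure D3:**
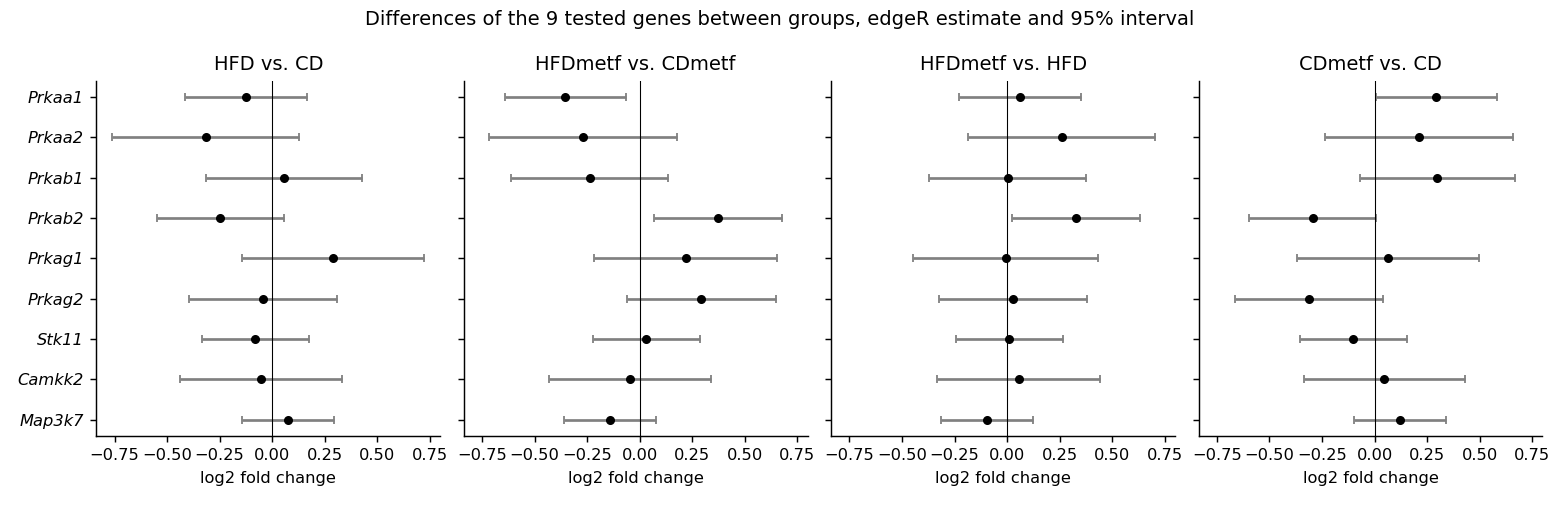
logFC of the 9 tested genes in the 4 contrasts, with the edgeR estimate as a point and its 95% interval as a line; the vertical line marks no difference. The intervals that leave out 0 are those of Prkaa1 and Prkab2 in HFDmetf vs. CDmetf, Prkab2 in HFDmetf vs. HFD and Prkaa1 in CDmetf vs. CD, and none of these has an FDR under 0.05.

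Prkab2, the minor scaffold subunit, had 8.36, 11.4 and 12.5 CPM in CD (lowest, median and highest of 6 libraries). With metformin on this diet, CDmetf, it had 6.85, 9.40 and 11.1 CPM. In HFD it had 6.65, 9.90 and 10.6 CPM and in HFDmetf 8.80, 11.5 and 14.5 CPM. The medians were thus lower with metformin on the control diet and higher with it on the high-fat diet, and each pair of groups overlapped. The interaction that measures this contrast was the largest among the members (logFC = 0.62, SE = 0.21, 95% interval 0.19 to 1.05), but its FDR was 0.768. It was the 1 of 9 members with an unadjusted p under 0.05, against 5.76% of all genes. The counts behind it were 15 to 409 reads per library.

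Markers of other cells varied over the same 4 groups, and more widely than Prkab2. The 7 adipocyte markers, of which none was at 0 in all libraries, summed to 35.5 to 463.9 CPM in CD, 37.8 to 293.8 in CDmetf, 33 to 212.0 in HFD and 47.2 to 570.1 in HFDmetf. The 9 B-cell markers, none of them at 0 throughout, summed to 7.03 to 74.7 CPM in CD, 11.4 to 406.1 in CDmetf, 13.5 to 327.6 in HFD and 8.49 to 27.5 in HFDmetf. With a score of either list as a covariate the interaction of Prkab2 was 0.60 (adipocyte, a setting added after the data were seen) and 0.69 (B-cell). In HFDmetf vs. HFD, Prkab2 kept an unadjusted p under 0.05 with the B-cell score, as did 820 of 13505 genes. With the adipocyte, epithelial or smooth muscle score 0 of 9 members did, beside 600, 385 and 248 genes. The 8 tested smooth muscle markers each had a positive logFC in HFDmetf vs. HFD (median 0.40). With HFD M2 and HFD F2 left out, the logFC of Prkab2 in HFDmetf vs. HFD was 0.26 (SE = 0.17, FDR = 0.993, edgeR). The part of these markers in the result was not tested further.

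Prkaa1, the catalytic subunit found in most tissues, had 47.8, 66.5 and 84.1 CPM in CD (lowest, median and highest) and 65.6, 82.2 and 94.4 CPM in CDmetf. In HFD it had 49.2, 53.5 and 85.1 CPM and in HFDmetf 50.6, 61.2 and 84.8 CPM. The CDmetf libraries were the highest as a group, and they overlapped with all others. Averaged over metformin, the logFC of Prkaa1 with the high-fat diet was -0.24 (SE = 0.10, FDR = 0.741, edgeR), and it was the 1 of 9 members with an unadjusted p under 0.05, against 5.95% of all genes. Averaged over diets, the difference with metformin was 0.18 (SE = 0.10, FDR = 0.770), with 0 of 9 members under 0.05 against 5.25% of all genes.

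Library properties moved with Prkaa1. The share of uniquely mapped reads that fell outside genes was 20.2% to 41.2% in CD and 17.1% to 24.7% in CDmetf, and with this share as a covariate, added after the data were seen, the logFC of CDmetf vs. CD was 0.10 (SE = 0.11, FDR = 0.999, edgeR). Without CD M3, the library with the largest share, it was 0.21 (SE = 0.14, FDR = 0.869). Among the deep libraries the difference of mean log2 CPM was 0.61 (2 against 4 libraries) and 0.57 without CD M3, and among the shallower ones it was -0.09 (4 against 2), or 0.12 with CD M3 counted among them. In HFDmetf vs. CDmetf the corresponding values were -0.41 (2 against 2) and -0.36 (4 against 4). The logFC with the covariate was -0.20 there (SE = 0.10, FDR = 0.877). The part of this share in these differences was not tested. For HFD vs. CD with this covariate, Prkaa1 alone of 9 members was below 0.05 before adjustment (smallest member FDR = 0.942, edgeR), as were 691 of 13505 genes. The main fit had 0 of 9 members and 642 genes. For diet averaged over metformin, the smallest member FDR was 0.491 with the covariate and 0.741 without. Prkaa1 was the member below 0.05 in both fits, beside 878 of 13505 genes with the covariate and 803 without.

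Over the 24 libraries log2 CPM of Prkaa1 fell with the share of reads outside genes (Pearson r = -0.66, permutation p = 0.00034, adjusted p = 0.00816 over 24 relations; Spearman rho = -0.68, permutation p = 0.00039, adjusted p = 0.00936). Without CD M3 and HFDmetf F2, the libraries farthest from the median share, r was -0.64. Within the 3 replicate numbers (8 libraries each) r was -0.67, -0.56 and -0.94, and it was -0.86 in the 10 deep and -0.40 in the 14 shallower libraries. No other member passed an adjusted p of 0.05 in both measures against this share.

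Prkaa2 was the member with the largest difference between the sexes. Over all groups its logFC of males against females was 0.38 (SE = 0.15, 95% interval 0.06 to 0.70, FDR = 0.656, edgeR), and it was the 1 of 9 members with an unadjusted p under 0.05, against 7.23% of all genes. In CDmetf the males had 121.5, 167.6 and 217.1 CPM and the females 72.1, 78.4 and 80.3 CPM, so that the sexes did not overlap. In CD the males had 72.4, 138.2 and 77.8 CPM and the females 81.6, 126.0 and 109.9 CPM, in HFDmetf the males 129.7, 101.9 and 76.2 CPM and the females 78.6, 91.3 and 96.7 CPM. In these groups males and females overlapped. The libraries labelled HFD male had 72.0, 102.4 and 99.3 CPM and those labelled HFD female 53.6, 70.0 and 97.6 CPM, and these overlapped too. By the reads of Xist and Y-linked genes, the HFD males had 72.0, 70.0 and 99.3 CPM and the females 53.6, 102.4 and 97.6 CPM. The fit took sex from the labels. Without HFD M2 and HFD F2, Prkaa2 was still the 1 of 9 members with an unadjusted p under 0.05 between the sexes (FDR = 0.730, edgeR), as were 980 of 14648 genes.

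In a fit with 8 groups, added after the data were seen, the metformin difference of Prkaa2 on the control diet differed between males and females by 1.26 on the log2 scale (SE = 0.35, FDR = 0.921, edgeR), where 5.19% of all genes had an unadjusted p under 0.05. The difference of means was 0.83 in males and -0.44 in females (3 against 3 each). For the diet difference under metformin, which shares the CDmetf libraries, the sexes differed by -0.86 (SE = 0.35, FDR = 0.927), where 5.33% of all genes had an unadjusted p under 0.05. Prkag1 was the other member with an unadjusted p under 0.05 in both, with -0.86 (SE = 0.38, FDR = 0.931) and 0.88 (SE = 0.39, FDR = 0.927). The smooth muscle score was -0.35, 2.12 and 0.42 in the CDmetf males and -0.86, 0.12 and -0.65 in the females, and with that score as a covariate the logFC of Prkaa2 between the sexes over all groups was 0.29 (SE = 0.14, FDR = 0.752). Of the 7 adipocyte markers, 7 had a positive logFC in males against females by label, with a median of 1.36. An unadjusted p under 0.05 was found for 4 of them, against 7.23% of all genes, with the smallest FDR at 0.623. With their score as a covariate, added after the data were seen, the logFC of Prkaa2 was 0.33 (SE = 0.16, FDR = 0.930). Of the 8 skeletal muscle markers, 2 were tested. Acta1 had a logFC of 1.78 between the sexes (SE = 0.51, FDR = 0.585) and 2.58 in CDmetf vs. CD (SE = 0.66, FDR = 0.963). The other tested marker of the list did not share this, with 0.06 and -0.15. The part of Acta1 in the result for Prkaa2 was not tested.

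The composition of the subunit families was compared as the log2 ratio of read counts, so that scaling between libraries has no part in it. The ratio Prkaa1/Prkaa2 was -0.60 ± 0.086 in CD, -0.49 ± 0.55 in CDmetf, -0.45 ± 0.29 in HFD and -0.61 ± 0.35 in HFDmetf (SD, n = 6). Group means differed by at most 0.16, and the smallest exact permutation p of the 4 contrasts was 0.255. The 6 CD libraries lay between -0.72 and -0.51, CD M3 among them at -0.56, while in CDmetf the males had -0.80, -0.93 and -1.20 and the females -0.14, 0.07 and 0.03. The difference in spread between the groups was not tested.

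Prkab1/Prkab2 was 2.46 ± 0.36 in CD and 3.07 ± 0.39 in CDmetf, a difference of 0.60 (exact two-sided permutation p = 0.026, adjusted p = 0.182 over 12 comparisons). In HFD it was 2.75 ± 0.58 and in HFDmetf 2.39 ± 0.50, the latter 0.68 below CDmetf (exact p = 0.0303, adjusted p = 0.182). The groups overlapped in both comparisons, with 2.08 to 3.11 in CD, 2.65 to 3.62 in CDmetf and 1.80 to 3.03 in HFDmetf. Of the parts of the ratio in CDmetf vs. CD, Prkab1, named here after its values were seen, was higher in 6 of 6 pairs (logFC = 0.30, SE = 0.18, FDR = 0.963, edgeR) and Prkab2 in 2 of 6 (logFC = -0.29, SE = 0.14, FDR = 0.963). Prkag1/Prkag2 was -2.63 ± 0.41 in CD and between -2.33 and -2.27 in the other 3 groups, and the smallest exact p was 0.121 (adjusted p = 0.485). Over the 24 libraries this ratio fell with the log2 of the reads counted to genes by Pearson's r (r = -0.59, permutation p = 0.00298, adjusted p = 0.0358 over 24 relations) but not by rank (rho = -0.47, permutation p = 0.0234, adjusted p = 0.141). Without HFD F1 and CDmetf F3 r was -0.61. The relation did not hold within depth classes, with r = 0.38 in the 10 deep and 0.42 in the 14 shallower libraries. Within replicate numbers 1 and 3 r was negative (-0.49 and -0.66), and within number 2 it was 0.41. For Prkag1 itself rho was -0.58 (permutation p = 0.00362, adjusted p = 0.0434) and r was -0.51 (permutation p = 0.0103, adjusted p = 0.0617). Without the same 2 libraries r was -0.52, within replicate numbers -0.35, -0.09 and -0.75, and within the deep and shallower libraries -0.28 and -0.15. CD held 4 of the deep libraries and each other group 2.

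**Figure D4:**
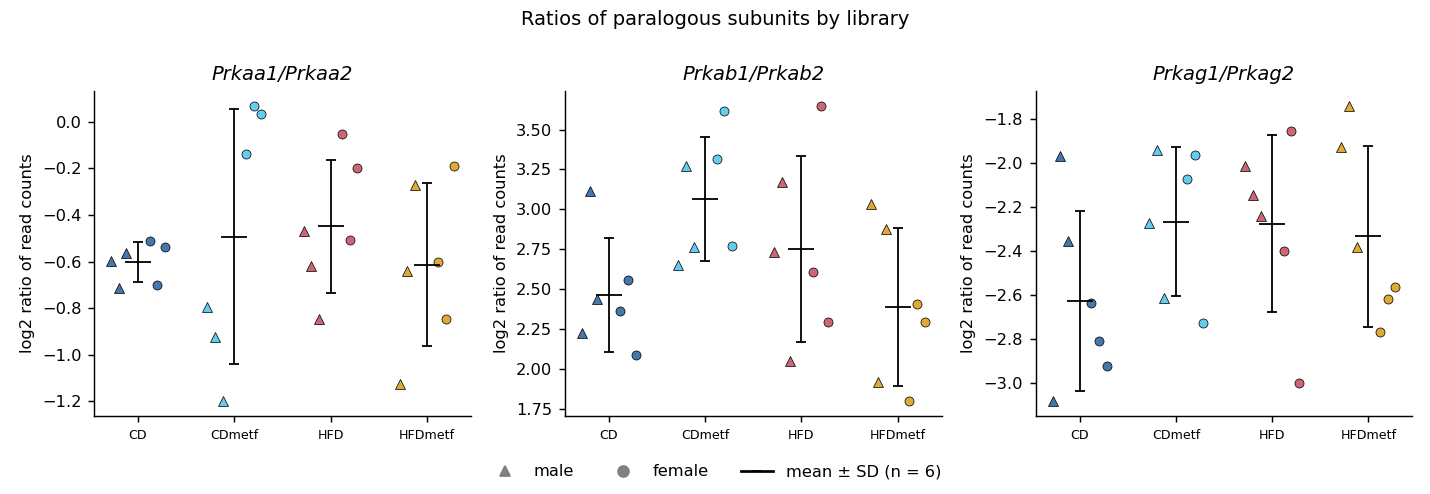
log2 ratio of read counts of 3 pairs of paralogous subunits in each library by group, with males as triangles, females as circles and the mean ± SD of 6 libraries as a bar. Prkaa1/Prkaa2 is narrow in CD and split by sex in CDmetf, and Prkab1/Prkab2 has its highest mean, 3.07, in CDmetf.

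Prkag1 and Prkag2, the more abundant of the nucleotide-binding gamma subunits, had no unadjusted p under 0.05 in any of the 8 comparisons. Prkag1 had medians of 8.63, 8.26, 10.1 and 9.93 CPM in CD, CDmetf, HFD and HFDmetf, with a range of 5.61 to 17.5 CPM over all libraries. Prkag2 had medians of 49.9, 40.4, 52 and 55.0 CPM, with a range of 33.1 to 79.8. Prkag3 had medians of 1.52, 0.552, 0.910 and 0.608 CPM and entered only the fit with no filter on low counts, where its logFC was -0.89 in HFD vs. CD (SE = 0.46, FDR = 1) and -0.84 in CDmetf vs. CD (SE = 0.45, FDR = 0.959, edgeR). The CD libraries had 5 to 26 reads of Prkag3. Many libraries of the other groups were at or below the floor of 3 counts. CDmetf M1, M2 and F2 had 2, 2 and 1 reads, and HFD M1, M2, M3 and F2 had 2, 3, 2 and 3. HFDmetf M1, M2 and M3 had 2, 3 and 3, and HFDmetf F2, whose floor was 1.65 CPM, had 0. The level of Prkag3 in these libraries was not determined at this depth, and its medians and logFC rest partly on them.

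Of the upstream kinases none had an unadjusted p under 0.05 in the 8 comparisons. Stk11, whose product LKB1 is held active by STRAD and MO25, was the most even of the 10 genes in its group medians, with 47.7, 46.9, 46.3 and 49.1 CPM in CD, CDmetf, HFD and HFDmetf. Camkk2 had medians of 10.6, 11.1, 11.1 and 11.9 CPM and Map3k7 48.1, 55.7, 50.4 and 46.9 CPM. The standard deviations within groups, 4.58 to 10.0 CPM for Stk11 and 6.05 to 9.78 for Map3k7, exceeded most differences between these medians.

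The markers of the gut wall were present in the tissue, and some members moved with them. All 11 epithelial markers and 8 of 9 smooth muscle markers were tested. The ileal markers Fabp6, Slc10a2, Slc51a, Slc51b and Fgf15 summed to 161.5 to 4658 CPM. The pieces thus differed widely in ileal markers, and the relation of the members to that list was not tested. Of 36 relations of members and ratios with 3 marker scores, log2 CPM of Prkab1 rose with the epithelial score (r = 0.57, permutation p = 0.00231, adjusted p = 0.0416; rho = 0.64, permutation p = 0.0009, adjusted p = 0.0225). Without the libraries with the most extreme scores, HFDmetf F2 and CD M2, r was 0.56, and within replicate numbers it was 0.41, 0.69 and 0.65. It was 0.41 in the 10 deep and 0.64 in the 14 shallower libraries.

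Prkaa2 rose with the smooth muscle score (r = 0.60, permutation p = 0.00189, adjusted p = 0.0416; rho = 0.61, permutation p = 0.00217, adjusted p = 0.026). Without CDmetf M2 and CD M1, r was 0.48, within replicate numbers it was 0.68, 0.86 and 0.21, and it was 0.41 in the deep and 0.74 in the shallower libraries. The ratio Prkab1/Prkab2 followed the epithelial score by rank (rho = 0.63, permutation p = 0.00125, adjusted p = 0.0225), whereas its Pearson r of 0.50 had an adjusted p of 0.0795. No relation with the B-cell score passed an adjusted p of 0.05.

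**Figure D5:**
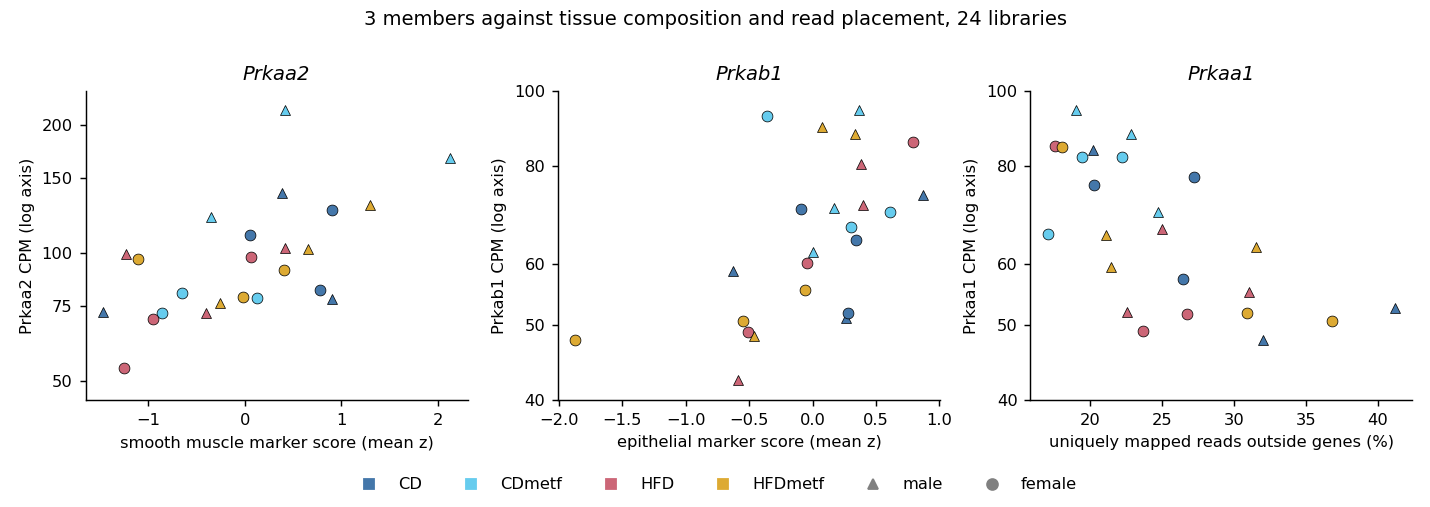
CPM on a log axis of Prkaa2 against the smooth muscle marker score, of Prkab1 against the epithelial marker score and of Prkaa1 against the percentage of uniquely mapped reads outside genes, 1 point per library, coloured by group and shaped by sex. Pearson r of the log2 values over 24 libraries is 0.60, 0.57 and -0.66.

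Among the members, Prkaa1 and Prkaa2 varied most closely together over the 24 libraries (Spearman rho = 0.66), followed by Prkaa1 and Map3k7 (rho = 0.55). Of 9589 other genes with a mean log2 CPM of at least 3, those most like Prkaa1 were Pak2, a p21-activated kinase (rho = 0.92), Uhmk1, a kinase with an RNA-recognition motif (rho = 0.91) and Galnt7, a mucin-type glycosyltransferase (rho = 0.89). Those most like Prkaa2 were F3, the gene of tissue factor (rho = 0.89), Oxct1, a mitochondrial enzyme of ketone body use (rho = 0.88), and Reg4, a secreted lectin of the gut epithelium (rho = 0.84). Those most like Stk11 were Dctn1, a dynactin subunit (rho = 0.82), Eif4g1, a translation initiation factor (rho = 0.80), and Rpl13a, a ribosomal protein gene (rho = 0.79). These are descriptions over libraries that also differ in depth and in the share of reads outside genes.

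The wider pathway was read from 3 lists: 14 partners and regulators (STRAD and MO25 of LKB1, the TAB proteins of TAK1, Camkk1, folliculin and its partners, sestrins), 12 AMPK-related kinases that LKB1 also activates, and 25 substrates of AMPK. All 51 genes were tested, and none passed an FDR under 0.05 in any of the 8 comparisons. In HFDmetf vs. HFD the median logFC was -0.05 for partners, 0.03 for related kinases and 0.01 for substrates, against -0.01 for all genes. In CDmetf vs. CD it was 0.06, -0.10 and 0.01, against -0.02. In HFD vs. CD it was -0.04, -0.05 and -0.01, against 0.01, and in HFDmetf vs. CDmetf it was -0.10, 0.01 and 0.00, against 0.03. At an unadjusted p under 0.05, which 4.75% of all genes had in HFD vs. CD, 0 of 14 partners, 1 of 12 related kinases (lower) and 3 of 25 substrates (1 higher and 2 lower) were found there. In HFDmetf vs. CDmetf, against 7.55% of all genes, it was 2 partners, 0 related kinases and 3 substrates, each of them lower. In HFDmetf vs. HFD, against 6.87%, it was 1 partner (higher), 0 related kinases and 2 substrates (lower), and in CDmetf vs. CD, against 5%, it was 1 partner (higher), 1 related kinase (lower) and 2 substrates (1 higher and 1 lower).

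The genes with the smallest p of each list differed between comparisons. Among partners, Sesn3, a sestrin that restrains mTORC1, had a logFC of 0.32 in CDmetf vs. CD (SE = 0.12, FDR = 0.963) and -0.33 in HFDmetf vs. CDmetf (SE = 0.12, FDR = 0.626), 2 comparisons that share the CDmetf libraries. It was Fnip2, a folliculin partner, in HFDmetf vs. HFD (logFC = 0.35, SE = 0.17, FDR = 0.620) and Sesn1 in HFD vs. CD (logFC = -0.32, SE = 0.25, FDR = 0.999). Among related kinases it was Sik2, which phosphorylates CRTC coactivators, in HFD vs. CD (logFC = -0.48, SE = 0.19, FDR = 0.995) and in HFDmetf vs. HFD, which share the HFD libraries (logFC = 0.34, SE = 0.19, FDR = 0.620). In HFDmetf vs. CDmetf it was Nuak1 (logFC = 0.33, SE = 0.22, FDR = 0.725) and in CDmetf vs. CD Brsk1 (logFC = -0.62, SE = 0.27, FDR = 0.963).

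Among substrates, Srebf1, the transcription factor of fatty acid synthesis, had a logFC of 0.93 in HFD vs. CD (SE = 0.28, FDR = 0.995) and -0.75 in HFDmetf vs. HFD (SE = 0.28, FDR = 0.620), comparisons that share the HFD libraries. In HFDmetf vs. CDmetf it was Gfpt1, the entry enzyme of the hexosamine pathway (logFC = -0.43, SE = 0.14, FDR = 0.561). In CDmetf vs. CD it was Tbc1d4, a regulator of glucose transporter traffic (logFC = 0.49, SE = 0.22, FDR = 0.963). Averaged over metformin, 1 of the 25 substrates was higher on the high-fat diet and 4 were lower at an unadjusted p under 0.05, against 5.95% of all genes. In the interaction the genes with the smallest p were Sesn3 (logFC = -0.36), Brsk1 (0.80) and Hdac4 (0.29), each with an FDR of 0.815. For metformin over both diets they were Fnip2 (logFC = 0.30), Mark1 (0.32) and Tbc1d4 (0.35), each with an FDR of 0.770. For diet over both metformin levels, the partners had Tab2, a TAK1 binding protein (logFC = -0.14, FDR = 0.775), and the related kinases Sik2 (logFC = -0.23, FDR = 0.885). Between the sexes they were Sesn2 (logFC = 0.27, FDR = 0.681), Nuak1 (logFC = 0.30, FDR = 0.685) and Ulk1, a kinase that starts autophagy (logFC = 0.24, FDR = 0.623).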

How the data were processed

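The authors prepared directional libraries after ribosomal RNA depletion, trimmed the reads with Trimmomatic 0.39, and aligned and counted them on GRCm38 with STAR 2.5.3a. The deposited table holds raw read counts per gene, and 0 of its columns belong to other samples. The annotation release is not given in the sources used here, and lengths and coordinates come from GENCODE M21, on the same build. Lines of the table that name no gene were left out of library sizes. Of uniquely mapped reads, 17.1% to 41.2% lay outside genes, and 3.25% to 20.1% were ambiguous. Samples were grouped by their labels. In edgeR 4.0.16 (R 4.3.3), genes were kept with filterByExpr on group, libraries were scaled by TMM, and a quasi-likelihood fit to all 24 libraries held group, sex and replicate number, with Benjamini-Hochberg adjustment over all genes tested and a threshold of 0.05. Log2 CPM had a prior count of 1. A marker score is the average, over the genes of a list, of their standardised log2 CPM. Ratios used counts + 0.5 and exact two-sided permutation tests. Correlations used 100000 permutations.

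The replicate number stood for the block because the study used a randomised block design with sex and sequencing block as covariates, although no label ties the number to the block. Deviations from the group means of libraries with the same sex and number correlated at a mean of 0.17 (22 of 36 pairs above 0.1). With the same number and either sex the mean was 0.13 (38 of 72 above 0.1), against -0.06 for different numbers and either sex (31 of 144 above 0.1). No 2 libraries held identical values. Per the study's methods, each library is 1 animal from a cage of its own.

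In each comparison the text names members with an unadjusted p under 0.05 or, with none, the member with the smallest p, likewise the gene of each list with the smallest p (1 such gene is not reported here), and the 3 genes nearest in rank to Prkaa1, Prkaa2 and Stk11. The members, lists and rules were chosen with earlier results of these data known. The fits were tested on simulated data. As alternatives, the results were recomputed with DESeq2 1.42.0, with limma-voom of limma 3.58.1, and with RLE size factors, no filter or at least 10 counts in every library, no block, no sex term, robust fitting, only the libraries compared, libraries left out, and the total count or a marker score as a covariate.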

Additional observations from a re-analysis of the deposited data

Results flagged for a closer look

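Each of the 10 genes and the 3 ratios was checked in each of the 4 groups of 6 libraries for a library far from the others (52 sets, of which chance flags about 1 in 20). There were 3: Stk11 in CD M3 at 70.1 CPM, where the next highest CD library had 49.7, Map3k7 in CD F3 at 65.7 CPM, next to 51.7, and Prkag1 in HFDmetf M2 at 17.5 CPM, next to 9.99. No difference of a contrast between the sexes or between the diets had an FDR under 0.05 for a member by edgeR.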

How the results depend on the processing

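No member passed an FDR under 0.05 in any of 315 alternative counts, and the smallest FDR of a named member was 0.299. All 355 alternative logFC of the named members kept their sign, in refits of the same animals. The unadjusted p under 0.05 was less steady. Prkaa1 in CDmetf vs. CD kept it in 12 of 16 settings and in 10 of 24 fits with 1 animal left out. Prkab2 in HFDmetf vs. HFD kept it in 9 of 16 and 20 of 24, and its interaction in 15 of 15 and 24 of 24. With DESeq2 the number of genes called was 12 in HFD vs. CD, 4 in HFDmetf vs. CDmetf, 4 in CDmetf vs. CD, 4 for the interaction, 54 for diet and 21 for sex. For diet, limma-voom called 4 genes and the fit with no filter 2, and leaving out 1 animal gave 0 to 6 (6 without CDmetf F1 or HFD M2). For sex, no filter gave 15 genes, removal of the libraries labelled HFD M2 and F2 8, the total count as a covariate 0, the epithelial score 8, the smooth muscle score 2 and the B-cell score 2, and leaving out 1 animal gave 0 to 8 (8 without HFD M2, 7 without HFD F2, 4 without HFDmetf M3, 2 without CD M1 or CD M3, 0 without CDmetf M1).

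Without the libraries labelled HFD M2 and F2, the difference in log2 Prkab1/Prkab2 in HFD vs. CD reversed to -0.0424 and that of Prkag1/Prkag2 in HFDmetf vs. HFD to 0.0805. With 1 animal left out, Prkaa1/Prkaa2 in CDmetf vs. CD ranged from -0.0011 to 0.25 (lowest without CDmetf F2), Prkag1/Prkag2 in HFDmetf vs. CDmetf from -0.19 to 0.0197 (highest without HFDmetf F1) and in HFDmetf vs. HFD from -0.20 to 0.0295 (above 0 without HFD F2, at 0.0266, or HFDmetf F1). The cause was not tested. With all exonic bases as length, Prkag1 was 35.7% and Prkag2 62.2% of the gamma family, because uncounted bases enter the length.

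Without the replicate block the logFC of Prkaa1 in CDmetf vs. CD was 0.30 (SE = 0.17, FDR = 1.00, edgeR). With the ratios tested as pairs under the replicate block, Prkab1/Prkab2 in CDmetf vs. CD differed by 0.60 (exact sign-flip p = 0.0312, the smallest that 6 pairs allow, adjusted p = 0.375) and in HFDmetf vs. CDmetf by -0.68 (exact p = 0.156, adjusted p = 0.438). No call at an adjusted p under 0.05 changed. Depth limits Prkag3, with 244 reads in all, and then Prkag1, Prkab2 and Camkk2, with 2386, 2975 and 3102 reads in all and 17, 15 and 12 in the lowest library.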
